A study of Mus musculus with 16 samples.

Results

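A tandem 3' end node is the stretch of a terminal exon that lies between one annotated transcript end and the next. Within 1 terminal exon the first node runs to the most proximal end, the end closest to the coding sequence, and each later node adds the bases up to the next, more distal end. The Psi table of this series assigned 12425 of its 125520 nodes to this type. All 12425 carried a numeric Psi in both groups, the fraction of reads assigned to that end among the ends of its terminal exon. Ordered along the transcript strand, the nodes fell into 4887 sets of consecutive nodes in 4794 genes, and they are called proximal (first), middle or distal (last) by their place in the set. The last base of 12119 nodes (97.5%) was an annotated transcript end in GENCODE M21, the mouse annotation on GRCm38 (mm10), which is the build of all coordinates given.

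RNA had been taken from 16 individual recipient mice, 8 per group. Naive CD8+ T cells of OT-1 Tg C57BL/6J mice, whose transgenic T cell receptor binds the ovalbumin peptide SIINFEKL, had been electroporated with Cas9 and either a scrambled guide (Control gRNA) or one that targets Tardbp (Tardbp gRNA) and transferred into C57BL6/J mice. Both groups thus shared the transgene, Cas9, the antigen SIINFEKL and the costimulatory agonist antibodies anti-OX40 and anti-41BB, and the transferred CD8+ T cells were sorted from spleen and lymph nodes 4 days later by the labels. The edited cells were a pool and not a clone, so a library can hold unedited cells. The age and sex of the animals are not reported here.

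Most pre-mRNAs carry more than one polyadenylation site in the last exon. Cleavage at a proximal site gives a short 3' untranslated region (3' UTR), and cleavage at a distal site gives a long one that can hold further binding sites for miRNAs and RNA-binding proteins. The cleavage machinery recognises a hexamer, most often AATAAA or its variant ATTAAA, a short way upstream of the cut. TDP-43, the protein encoded by Tardbp, binds UG-rich RNA and controls the splicing and polyadenylation of its own transcript among others. T cells are known to use more proximal ends after activation.

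The libraries held 29714709 to 48164083 read pairs. The estimated counts on annotated genes summed to 73649630 to 93893357 per Control library and 56016533 to 94801105 per Tardbp library. Tardbp itself was lower after the Tardbp guide, at 135 ± 11.3 CPM (counts scaled to the library's total after TMM adjustment) against 192 ± 13.3 CPM in Control (SD, n = 8 each). Its log2 fold change was -0.51 (SE 0.0558, adjusted p = 8.07e-07, edgeR), and no Tardbp library reached the lowest Control value. All 5 CD8 T cell markers were detected, summing to 2190 to 2780 CPM in Control and 3250 to 4220 CPM in Tardbp libraries, while the CD4 marker stayed under 0.601 CPM throughout. The 4 red cell markers summed to 0.214 to 10.8 CPM and 6.17 to 112 CPM. Ranges were 14.8 to 35.1 and 19.0 to 79.1 CPM for 5 myeloid markers, 6.85 to 13.1 and 7.28 to 18.4 CPM for 4 B cell markers, and 0.198 to 2.24 and 0.3 to 1.7 CPM for the NK cell marker. RNA concentration before dilution, given without a unit, was 34.9 to 197.1 in Control and 10.1 to 24 in Tardbp libraries. Because the concentration ranges do not overlap, concentration and guide cannot be told apart in any comparison of the groups.

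The sequences below are the last bases at the ends on which the results for single genes turn, written 5' to 3' on the transcript strand. Each is 30 bases, read from the GENCODE M21 transcript sequences (GRCm38). Capitals mark AATAAA, or ATTAAA where AATAAA is absent from the last 50 bases. A sequence ends at the node's last base unless the hexamer lies further upstream, in which case it starts 4 bases before the hexamer. The first set shows 7 genes that the study followed for their ends.

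Ikzf1 node 13, proximal, chr11:11769769-11769798, plus strand: ggaacattcacaacatccatccttctagcc
Ikzf1 node 14, middle, chr11:11772083-11772112, plus strand: gctggtaaaggagggttttgcatgacctca
Ikzf1 node 15, distal, chr11:11772897-11772926, plus strand: tgtttccaatcctttctaatacattttttc
Dlg1 node 34, proximal, chr16:31871817-31871846, plus strand: atctcttgccctgttgtggagtctgtcttc
Dlg1 node 37, middle, chr16:31873317-31873346, plus strand: ggagaacagctAATAAActttattgtaaaa
Dlg1 node 39, distal, chr16:31873324-31873353, plus strand: agctAATAAActttattgtaaaatccatat
Atf2 node 22, proximal, chr2:73818266-73818295, minus strand: cctgcaatgtttttaagattaagtaaacaa
Atf2 node 23, middle, chr2:73816524-73816553, minus strand: ctaaaccatcagagAATAAAttctatcttt
Atf2 node 24, distal, chr2:73816514-73816543, minus strand: agagAATAAAttctatctttaaattatgtt
Tcf12 node 27, middle, chr9:71844723-71844752, minus strand: ttatttttcactgtagctagtcttttatac
Tcf12 node 28, middle, chr9:71844277-71844306, minus strand: tagcAATAAAtgtgccatccttttttttaa
Mbnl1 node 20, middle, chr3:60629352-60629381, plus strand: tgctgtagatcatgttctttccgcaggtgg
Mbnl1 node 22, middle, chr3:60629719-60629748, plus strand: tgccctAATAAAacttctctttcttaagta
Mbnl1 node 23, distal, chr3:60629721-60629750, plus strand: ccctAATAAAacttctctttcttaagtata
Skp2 node 13, proximal, chr15:9113302-9113331, minus strand: cccaagttttaaaaattacccgtggctaac
Skp2 node 14, distal, chr15:9111985-9112014, minus strand: tttaaAATAAAtacatttttataagaacaa
Sos2 node 28, distal, chr12:69583766-69583795, minus strand: gattAATAAAtcacctcagtcttaatttgt

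At Ikzf1, neither hexamer stands in the last 50 bases of any of the 3 ends. At Atf2, Dlg1 and Mbnl1 the last ends lie a few bases apart behind 1 shared AATAAA, whereas the proximal ends of Atf2, Dlg1 and Skp2 have neither hexamer there. The next set shows genes whose ends are described below by their values in each library, by a large move, or as the targeted gene.

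Pydc4 node 7, proximal, chr1:173593777-173593806, minus strand: attcataataactgatcactcattttgttt
Pydc4 node 8, distal, chr1:173591959-173591988, minus strand: tcagAATAAAcaaaaccctgtcttttcact
Prosc node 10, proximal, chr8:27049586-27049615, plus strand: ttacccagtactttattgggcaagagtagg
Prosc node 11, distal, chr8:27050212-27050241, plus strand: ttcattgcataaaagcagatacaaaattga
Cox16 node 10, proximal, chr12:81472093-81472122, minus strand: agaaatttttgATTAAAaagtcaagtataa
Cox16 node 11, distal, chr12:81470704-81470733, minus strand: taactgtgggctcctgtaagacaaaacaag
Pcf11 node 5, proximal, chr7:92669221-92669250, minus strand: gcggggaggatgcagggtggagccccattt
Pcf11 node 6, distal, chr7:92668184-92668213, minus strand: aaaatttgtgAATAAAacatataaaatatg
Tardbp node 16, middle, chr4:148616726-148616755, minus strand: tttgcttcaAATAAActtatttgaaaagtt
Tardbp node 17, distal, chr4:148612382-148612411, minus strand: gttaaATTAAAccatttggaatatattgtg

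Across all 12083 ends with 200 bases of transcript sequence, 49.4% held AATAAA in the last 50 bases and a further 12.3% held only ATTAAA, searched on the transcript strand. AATAAA stood at 37.2% of proximal, 45.3% of middle and 64.0% of distal ends. It stood at 59.3% of the 4551 ends whose Control Psi was over 0.5 and at 37.5% of the 2499 ends whose Control Psi was under 0.05. The hexamer was thus more frequent at distal ends and at ends that took most of the reads in Control. A TG repeat, TGTGTG or GTGTGT, which overlap each other and were counted once per end, stood in the last 200 bases of 14.8% of proximal and 17.7% of distal ends, against 16.1% of all.

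Sets were mostly small. There were 2 nodes in 3233 sets (66.2%), 3 nodes in 1074 (22%), 4 nodes in 345 (7.06%) and over 5 nodes in 90 (1.84%), with 19 as the highest number. Nearly all sets (4763, 97.5%) belonged to protein-coding genes. Of the 7538 nodes after the first, 7367 (97.7%) held no coding base, and 4495 first nodes (92.0%) did hold coding bases, so the choice among the nodes of a set changed mainly the length of the 3' UTR. Many later nodes were short. All ends lay within 24 bases of each other in 1435 sets (29.4%), and over 200 bases apart in 2873 sets (58.8%). In 27 sets (0.552%) the nodes did not all touch and spanned 2 terminal exons, and in all 27 the Control Psi summed to over 1.5. Psi summed to 1 within 0.02 in 4375 sets (89.5%) in Control and in 4393 (89.9%) in Tardbp.

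In Control cells the proximal node held the largest Psi of its set in 2543 sets (52.0%), a middle node in 811 (16.6%) and the distal node in 1533 (31.4%). Among sets of 2 nodes the proximal node led in 1975 (61.1%) and the distal in 1258 (38.9%). Where ends lay over 200 bases apart the order was nearly even, with 1090 sets (37.9%) led by the proximal and 1132 (39.4%) by the distal node. Usage was often split, since the leading node passed a Psi of 0.9 in 1627 sets (33.3%) and stayed under 0.6 in 824 (16.9%).

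Psi was deposited as 1 value per group of 8 libraries, so a difference in Psi has no error and no test here, and the reads behind it were not used. A difference over 0.1 in size, in either direction, was counted. After the Tardbp guide, 2676 tandem 3' end nodes (21.5%) in 1346 genes (28.1%) passed it, 1332 (10.7%) higher and 1344 (10.8%) lower. Over all node types the share was 4.70% (5904 of 125520), with 2.35% in each direction, and without the tandem 3' end nodes it was 2.85% (3228 of 113095). The tandem transcription start nodes had a similar share, 20.4% (1821 of 8926), and core exon nodes 0.932% (918 of 98533).

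**Figure D1:**
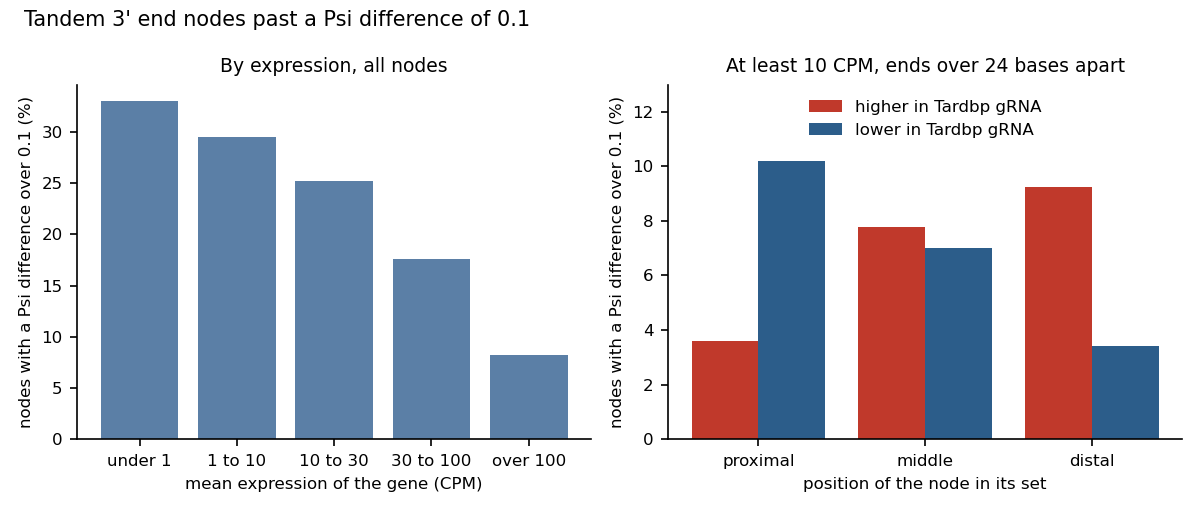
Left, share of tandem 3' end nodes (percent) whose Psi differed by over 0.1 between Tardbp gRNA and Control gRNA, by the mean expression of the gene in CPM, from 33.0% under 1 CPM to 8.18% over 100 CPM. Right, the share with a higher (red) or lower (blue) Psi after the Tardbp guide by place in the set, in genes of at least 10 CPM with ends over 24 bases apart, with 9.24% of distal nodes higher and 3.4% lower.

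The share depended on expression. It was 33.0% (488 of 1478 nodes) in genes under 1 CPM, 29.5% from 1 to 10 CPM, 25.2% from 10 to 30 CPM, 17.6% from 30 to 100 CPM and 8.18% (200 of 2444) over 100 CPM. Direction depended on place in the set. Psi in a set mostly sums to 1, so a rise at 1 node comes with a fall at another. The counts by place and the moves below thus largely restate the same differences. Among distal nodes 640 (13.1%) had a higher Psi after the Tardbp guide and 353 (7.22%) a lower one, and among proximal nodes 414 (8.47%) were higher and 708 (14.5%) lower. Middle nodes were even, at 278 (10.5%) and 283 (10.7%) of 2651. In genes of at least 10 CPM with ends over 24 bases apart, 215 distal nodes (9.24%) were higher and 79 (3.4%) lower, and 84 proximal nodes (3.61%) were higher and 238 (10.2%) lower, of 2326 each.

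Each set was also given 1 position, the Psi-weighted mean rank of its nodes, scaled from 0 (all reads at the proximal end) to 1 (all at the distal end). A change over 0.1 is called a move. There were 650 sets (13.3%) with a distal move and 361 (7.39%) with a proximal move, together 20.7% of sets, so 64.3% of the 1011 moves were distal. The distal share was 58.9% at ends within 24 bases (156 against 109 of 967 sets at 10 CPM or more), 68.8% at ends 25 to 200 bases apart (33 against 15 of 401) and 76.3% at ends over 200 bases apart (174 against 54 of 1925). The median change over all sets was 0.00215 on this scale, or 0.11 bases, as most sets did not move. A different node led in the 2 groups in 414 sets (8.47%), toward the distal side in 256 and toward the proximal side in 158.

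**Figure D2:**
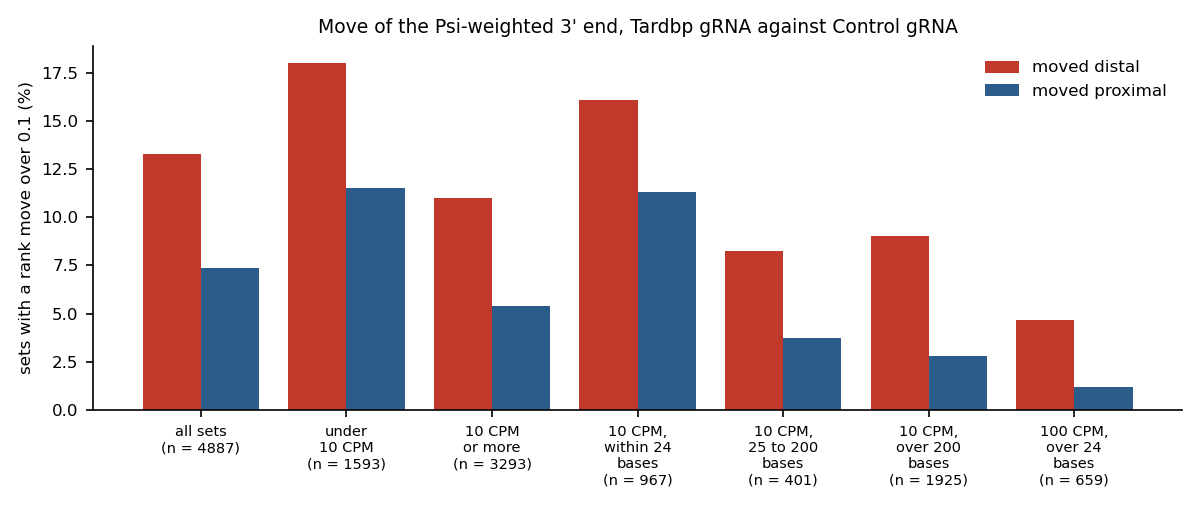
Share of sets (percent) with a distal (red) or proximal (blue) move over 0.1 in Psi-weighted rank after the Tardbp guide, over all sets and by expression in CPM and distance between the ends, with the number of sets under each pair of bars. The distal bar is the higher one in each class, at 9.04% against 2.81% where the ends lie over 200 bases apart in genes of at least 10 CPM.

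Ends that moved differed in sequence. In genes of at least 10 CPM with ends over 24 bases apart, AATAAA stood at 55.3% of the 414 ends with a higher Psi and at 37.6% of the 423 with a lower one, against 42.6% of all 6141. These classes also differed in place, and AATAAA stood at 24.5% of proximal and 60% of distal ends there. The TG repeat stood at 17.6% of the higher, 14.7% of the lower and 16% of all ends.

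Among the 7 genes followed by the study, all had a more distal Psi-weighted position after the Tardbp guide. These genes were named by the study from these samples, so their direction is no independent evidence, and the values are a description. Ikzf1, which encodes the lymphoid transcription factor Ikaros, had 3 ends (chr11, 11768881 to 11772926, plus strand). Psi of its distal node 15 was 0.307 in Control and 0.70 in Tardbp, and that of middle node 14 was 0.648 and 0.300. The mean end lay 424 bases further downstream, and the leading node changed from 14 to 15. In Dlg1, a scaffold protein of T cell receptor signalling, proximal node 34 had a Psi of 0.246 and 0.0452, node 37 of 0.498 and 0.493, and node 38, whose end lies 4 bases beyond that of node 37, of 0.0819 and 0.457. Its mean end lay 453 bases further downstream.

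Atf2, a basic leucine zipper transcription factor, had Psi of 0.178 and 0.0481 at proximal node 22 and of 0.175 and 0.345 at distal node 24, a shift of 228 bases. Tcf12, an E protein of lymphocyte development, had 0.343 and 0.105 at node 27 and 0.480 and 0.747 at node 28, a shift of 190 bases. For Mbnl1, itself a regulator of splicing and polyadenylation, the values were 0.298 and 0.115 at node 20 and 0.353 and 0.572 at node 22, a shift of 122 bases. Skp2, which directs the cell cycle inhibitor p27 to degradation, used its distal node 14 at 0.916 and 0.984. Sos2, a Ras exchange factor measured at only 4.77 CPM, used node 28 at 0.878 and 0.990. Of these genes Dlg1 and Ikzf1 had the longest shifts, and in Skp2 and Sos2 the distal end already led in Control.

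**Figure D3:**
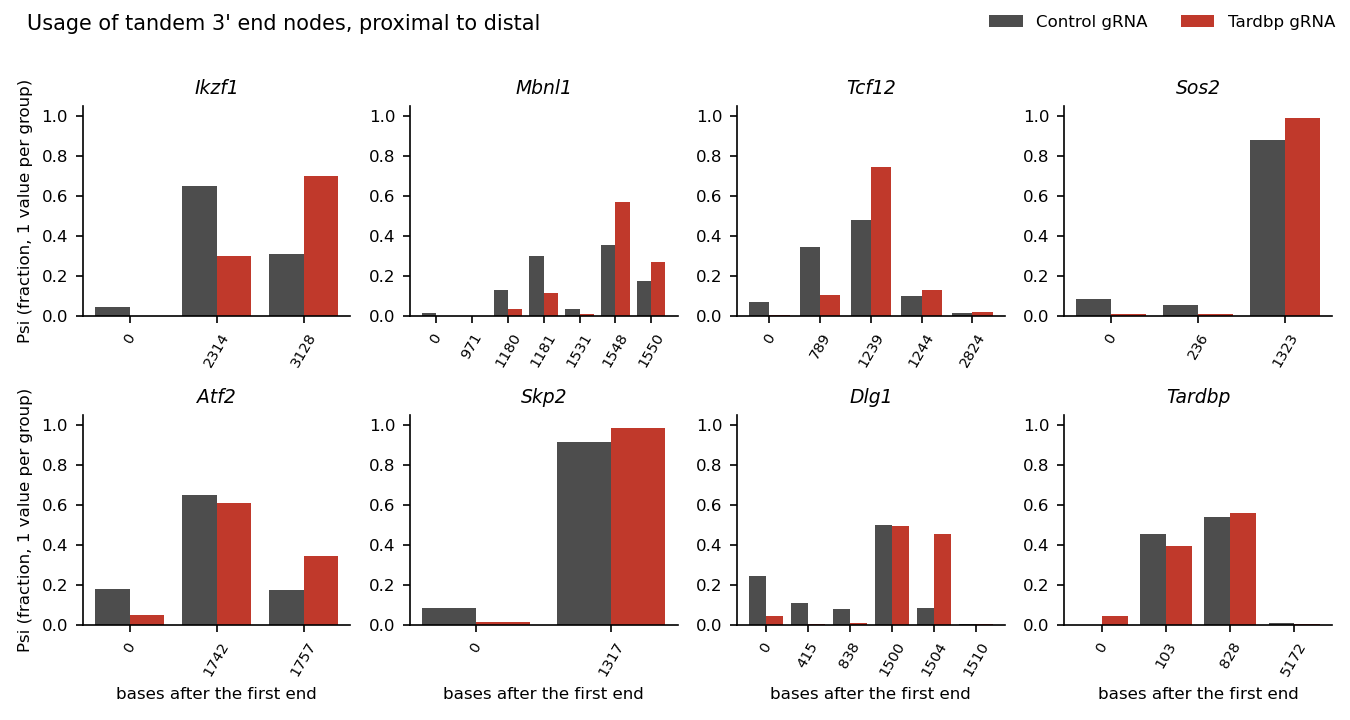
Psi (fraction, 1 value per group) at each node of the 7 study genes and of Tardbp, for Control gRNA (grey) and Tardbp gRNA (red), with nodes in order and labelled by the bases from the first end. For Ikzf1 the tallest bar is the middle node in Control, at 0.648, and the distal node in Tardbp, at 0.70.

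The Tardbp gene itself had 4 nodes (chr4, 148612382 to 148617635, minus strand). Psi was 0.453 and 0.393 at node 15, 0.540 and 0.558 at node 16 and 0.00780 and 0.00495 at distal node 17. None of these differences passed 0.1, and its mean end changed by -5.67 bases, that is slightly upstream.

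A second readout gave a value for every library. The estimated counts of the transcripts that end in a node were divided by those of all transcripts that end in the set, giving an end share that could be tested by limma over 10765 nodes in 4215 sets. The 2 readouts often placed reads differently within a set, since Control share and Control Psi differed by over 0.1 at 7719 nodes (71.7%), with a median gap of 0.25. The share varied between mice, with a median SD of 0.0578 in Control and 0.0584 in Tardbp, and the Control SD was over 0.1 at 3799 nodes (35.3%). At adjusted p under 0.05 and a difference over 0.1, 22 nodes (0.204%) in 13 sets were called, 10 higher and 12 lower. At any size of difference 36 nodes (0.334%) passed, and 925 nodes (8.59%) had a raw p under 0.05. Of the 2676 nodes past 0.1 in Psi, 2169 (81.1%) had a share.

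For Ikzf1 node 15 the end share was lowest at 0.602, with a median of 0.723 and a highest value of 0.931, in Control, and 0.865, 0.913 and 0.966 in Tardbp. The groups overlapped through the highest Control library, and the means of 0.748 ± 0.108 and 0.921 ± 0.0393 (SD, n = 8 each) differed by 0.174 (SE 0.0401, adjusted p = 0.105, limma), which missed the threshold. Node 14 mirrored it, at 0.225 ± 0.0947 and 0.0725 ± 0.0398 (difference -0.153, SE 0.0357, adjusted p = 0.116). For Dlg1 node 37 the lowest, median and highest shares were 0.326, 0.598 and 0.704 in Control and 0.606, 0.816 and 0.976 in Tardbp. These groups overlapped too, with a difference of 0.274 (SE 0.0658, adjusted p = 0.128). Neither gene passed the test.

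The other study genes did not pass this test either. For Ikzf1, Mbnl1 and Tcf12 the study also reported 3' UTR changes by another method, DaPars, which was not run here. Mbnl1 nodes 20 and 22, where Psi differed most, had shares of 0.0581 ± 0.0333 and 0.0553 ± 0.021 (adjusted p = 1.0) and of 0.0552 ± 0.0609 and 0.0604 ± 0.0381 (adjusted p = 1.0). Mbnl1 node 23 had shares of 0.0821 ± 0.0576 and 0.187 ± 0.109 (adjusted p = 0.520), and Atf2 node 24 of 0.797 ± 0.114 and 0.763 ± 0.161 (adjusted p = 0.994). The share of Sos2 node 28 was 0.770 ± 0.324 and 0.841 ± 0.152 (adjusted p = 0.971), with a Control library at 0 beside others of 0.767 or more. Tcf12 node 28, at Psi 0.480 and 0.747, had shares of only 0.00902 ± 0.00995 and 0.011 ± 0.0115 (adjusted p = 1.0). Skp2 node 14 stood at 1.0 and Tcf12 node 27 at 0 in every library of both groups. The Tardbp gene had 0.435 ± 0.0438 and 0.495 ± 0.174 at node 17 (adjusted p = 0.846).

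**Figure D4:**
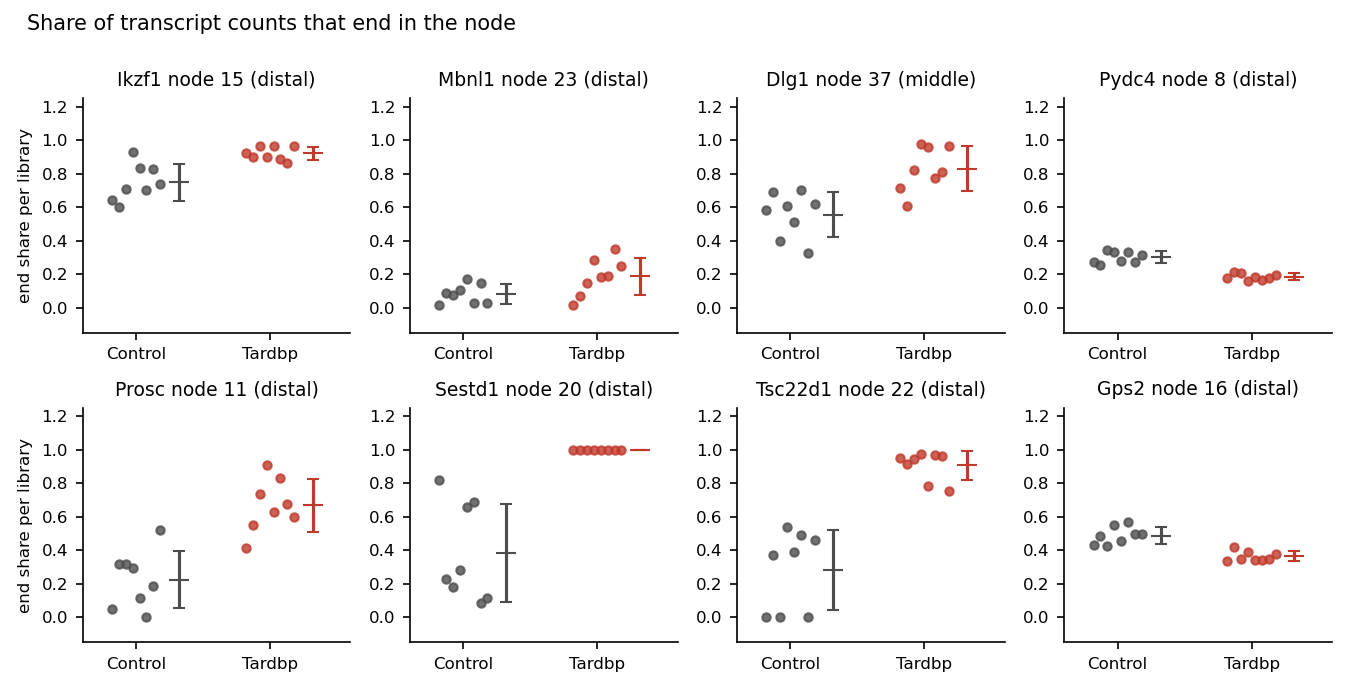
End share (fraction of the set's transcript counts) in each library at 3 nodes of study genes and 5 nodes called by limma, with 8 Control gRNA (grey) and 8 Tardbp gRNA (red) libraries as points and the mean ± SD beside them. At Pydc4 node 8 the groups are apart, whereas at Ikzf1 node 15 a Control library, at 0.931, lies among the Tardbp libraries.

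The clearest call was Pydc4, which encodes a pyrin domain protein (chr1, nodes at 173591957 to 173593937, minus strand), with ends 1820 bases apart. Its distal node 8 had lowest, median and highest shares of 0.256, 0.296 and 0.345 in Control and of 0.159, 0.181 and 0.216 in Tardbp. Every Tardbp library lay under every Control library, and the share fell by 0.115 (SE 0.0141, adjusted p = 0.00233, limma). Psi of the same node was 0.169 and 0.0680. This is a move to the proximal end, which has neither hexamer in its last 50 bases, in a gene whose expression rose (log2 fold change 1.67, adjusted p = 3.61e-05, edgeR).

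Prosc, which encodes a pyridoxal phosphate-binding protein, was called toward the distal end. The share of node 11 (chr8, 626 bases beyond node 10) had lowest, median and highest values of 0, 0.240 and 0.519 in Control and of 0.411, 0.652 and 0.908 in Tardbp, with some overlap. It rose by 0.442 (SE 0.0812, adjusted p = 0.0316), while Psi was 0.662 and 0.649. The Prosc call was lost with logit shares (adjusted p = 0.124), with unscaled counts (difference 0.318, adjusted p = 0.196), with only transcripts that end at the node's last base (0.397, adjusted p = 0.146) and with RNA concentration as a covariate (0.191, adjusted p = 1.0). Gps2, a subunit of the NCoR corepressor complex, was called for ends a base apart, node 16 falling from 0.488 ± 0.0518 to 0.364 ± 0.03 (difference -0.124, SE 0.0208, adjusted p = 0.017), with Psi under 0.005 in both groups. The middle node 12 of Tmem80, a transmembrane protein gene, fell from 0.391 ± 0.0508 to 0.265 ± 0.0489 (difference -0.126, SE 0.0245, adjusted p = 0.0438), with Psi of 0.145 and 0.0678. When only transcripts that end at the node's last base were counted, the Tmem80 difference was -0.0306 (adjusted p = 0.661). Pydc4 and Gps2 kept their calls under that count, with differences of -0.115 (adjusted p = 0.00234) and -0.124 (adjusted p = 0.0156) at nodes 8 and 16.

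These 4 were the called sets in genes of at least 10 CPM whose nodes all touch, although Tmem80 node 12 had an adjusted p of 0.0515 once sets whose nodes do not touch were split. In 4 others, Gabpb1, Synj2bp, Emd and Rcor3, the set spanned 2 terminal exons, and none of their called nodes passed the test when such sets were split where nodes do not touch, an alternative chosen after seeing the data. Gabpb1 node 17, for example, rose from 0.393 ± 0.0391 to 0.587 ± 0.039 (difference 0.194, SE 0.0192, adjusted p = 0.000653) over the whole set and by 0.0205 (adjusted p = 0.505) within its own exon. Emd nodes 10 and 12 differed by -0.0267 (adjusted p = 0.762) and 0.00312 (adjusted p = 0.907) after the split, against -0.119 and 0.110 before. Synj2bp node 10 still differed by -0.133 (adjusted p = 0.124), against -0.239, and Rcor3 node 19 by -0.209 (adjusted p = 0.606), against -0.183. The difference within an exon was thus small for Gabpb1 and Emd and kept its direction, without passing the test, for Synj2bp and Rcor3. Psi of Emd node 10 was 0.649 in Control and 0.755 in Tardbp, higher where its share was lower, and that of node 12 was 0.998 in both. Psi was 0.924 and 0.957 at Gabpb1 node 17, 0.0112 and 0.0129 at Synj2bp node 10 and 0.349 and 0.227 at Rcor3 node 19. The other 5 called sets, in Rbpms, Abcg2, Tsc22d1, Sestd1 and Tle1, were in genes of 0.945 to 5.71 CPM. In Tsc22d1, a leucine zipper transcription factor, node 22 had lowest, median and highest shares of 0, 0.380 and 0.539 in Control and 0.756, 0.946 and 0.975 in Tardbp and rose by 0.625 (SE 0.0884, adjusted p = 0.00833). Node 20, which fell from 0.666 to 0.0475, ends 832 bases after the first end and node 22 ends 835 bases after it. Psi of node 22 was 0.0579 in Control and 0.0260 in Tardbp. In Sestd1, a lipid-binding protein, node 20 ranged from 0.0841 to 0.820 in Control and was 1.0 in every Tardbp library (difference 0.618, SE 0.101, adjusted p = 0.0163), with Psi of 0.0783 and 0.141. In Tle1, a Groucho corepressor, distal node 32 rose from 0.203 to 0.880 (difference 0.677, adjusted p = 0.0163), with Psi of 0.133 and 0.143. In Abcg2, a drug efflux transporter, node 18 rose from 0.131 to 0.775 (difference 0.644, adjusted p = 0.0412), with Psi of 0.0844 and 0.102. In Rbpms, an RNA-binding protein gene, node 14 was 1.0 in every Control library and 0.188 ± 0.35 in Tardbp (difference -0.812, adjusted p = 0.0118). Its nodes 14 and 15 end only 3 and 4 bases after the first end, and Psi of node 14 was 0.1325 and 0.0880. Shares at such close ends, as in Rbpms and Tsc22d1, rest on the counting model.

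With RNA concentration as a covariate 4 of the 22 nodes kept a call, both Pydc4 nodes (difference -0.168 at node 8, adjusted p = 0.0482) and Emd nodes 10 and 12. In numbers 4 to 8 alone 4 of the 22 kept a call, and in numbers 1 to 3 alone 0 of the 22.

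Averaged over sets, the share-weighted rank gave a distal index per library. Over 4165 sets it was 0.6745 ± 0.004 in Control (0.6698 to 0.6826) and 0.6779 ± 0.00448 in Tardbp (0.6729 to 0.6867), a difference of 0.00344. Over the 2229 sets of at least 10 CPM and ends over 24 bases apart it was 0.7077 ± 0.00277 and 0.7113 ± 0.00447. The ranges overlapped in both, and the differences of 0.00344 and 0.0036 were of the size of the SD between mice. In the 194 sets with a distal move in Psi the index was 0.7473 ± 0.0102 (0.7332 to 0.7584) and 0.764 ± 0.00849 (0.7498 to 0.7747), and in the 66 with a proximal move it was 0.7583 ± 0.0142 and 0.7458 ± 0.0158. The sets were selected on the same libraries, so these are descriptions.

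**Figure D5:**
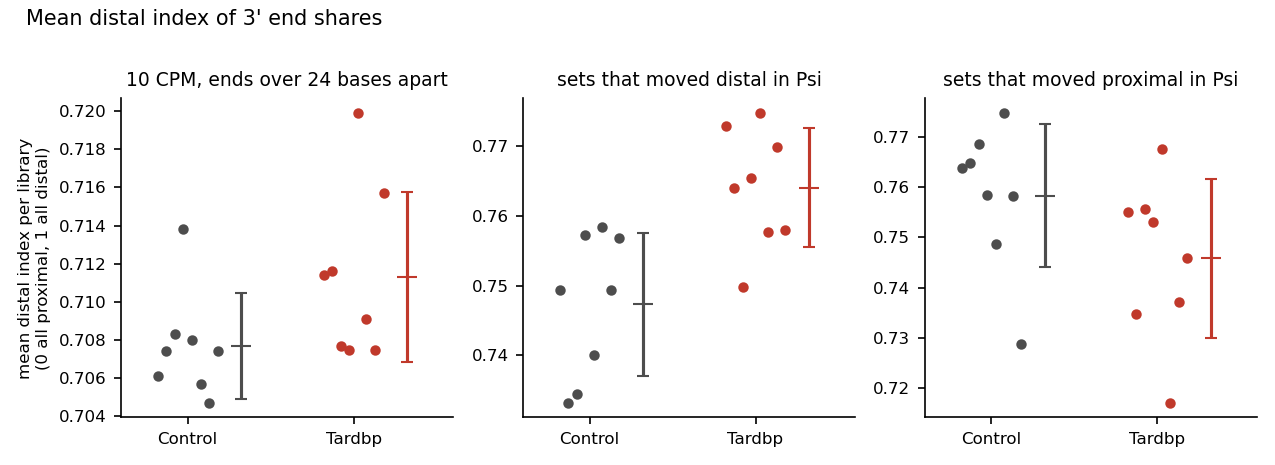
Mean distal index (share-weighted rank, 0 proximal to 1 distal) in each library over sets of at least 10 CPM with ends over 24 bases apart (left) and over sets with a distal (middle) or a proximal move in Psi (right), with points for libraries and the mean ± SD beside them. The vertical axes do not start at 0, and the Control gRNA and Tardbp gRNA ranges overlap in each panel.

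The largest moves in genes of at least 10 CPM were often between ends a few bases apart. Gsn, an actin-severing protein, went from a position of 0.382 to 0.984 between ends 2 bases apart. Pla2g6, a phospholipase, went from 0.256 to 0.865 between ends 4 bases apart, and Uros, a haem synthesis enzyme, from 0.271 to 0.869 across 9 bases. The others of the 8 largest distal moves were in Slc46a3, Zfp850, Arhgap27 and Wdr53, all between ends at most 9 bases apart. Rapgef6, a Rap exchange factor, went from 0.145 to 0.872 across 79 bases. On the proximal side the 8 largest included Dscc1, Kdm4b, Tmco4 and Cep85, with ends at most 8 bases apart, and Celf2, a splicing regulator, at 94 bases. Mt1, a metal-binding metallothionein, went from 0.856 to 0.357 across 2 bases. Cox16, a cytochrome c oxidase assembly factor, moved across 1389 bases: its distal node 11 had a Psi of 0.732 in Control and 0.0535 in Tardbp. Its end share was 0.486 ± 0.066 and 0.439 ± 0.0608 (difference -0.0472, adjusted p = 0.751). Top3a, a topoisomerase, went from 0.880 to 0.516 across 343 bases, with a share of 1.0 at the distal end in every library. In Cox16 and Top3a the difference in Psi was thus much larger than that in share.

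Counted in bases, and chosen after their values were seen, the 5 longest downstream shifts at 10 CPM or more were 1488 bases in Rc3h1, which encodes the RNA-binding protein Roquin-1, 1219 in Whsc1l1, a histone methyltransferase, 1126 in Asxl2, a Polycomb-associated factor, 1077 in Xpr1, a phosphate exporter, and 1019 in Ptbp3, a splicing regulator. On the upstream side the mean end changed by -942 bases in Cox16, by -872.8 bases in Ing5, a chromatin reader, by -788 bases in Klf13, a Kruppel-like factor, and by -721 bases in Itpr2, an inositol trisphosphate receptor. In Rc3h1 the distal node 23 had a Psi of 0.272 and 0.479 and an end share of 0.994 ± 0.016 and 0.968 ± 0.0601 (adjusted p = 0.840). The share readout thus gave Rc3h1 a distal end in nearly all transcripts of both groups.

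Gene lists that fit activated T cells were compared with the background of 21.5% of nodes past 0.1 in Psi and of 13.3% distal and 7.39% proximal moves. T cell receptor and costimulation genes had 17 of 79 nodes (21.5%) past 0.1, with 5 distal moves and 1 proximal among 29 sets and a median change of 0.0111. The distal ones at 10 CPM or more were in Dlg1, in Nfkb1 (the NF-kB p50 precursor), in Pik3r1 (the phosphoinositide 3-kinase p85 subunit) and in Rasgrp1 (a Ras exchange factor). The proximal move was in Tnfrsf9, which encodes 4-1BB, the receptor of one of the injected antibodies: its distal node 14 had a Psi of 0.646 and 0.50 and an end share of 0.851 ± 0.0349 and 0.835 ± 0.0656 (adjusted p = 0.964).

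T cell transcription factors had 26 of 127 nodes (20.5%) past 0.1, with 11 distal and 2 proximal moves among 36 sets and a median change of 0.0361. Beside Ikzf1, Atf2 and Tcf12, Eomes, a T-box factor of CD8 T cells, had a distal node 9 at Psi 0.577 and 0.820. The end shares of this Eomes node were 0.874 ± 0.0603 and 0.877 ± 0.0488 (adjusted p = 1.0). At 10 CPM or more, distal moves were also present in Mef2a, Ncoa2, Nr3c1 and Runx2, and proximal ones in Klf13 and Satb1. Distal moves outnumbered proximal ones in this list, as they did over all sets.

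RNA-binding regulators had 26 of 129 nodes (20.2%) past 0.1, with 7 distal and 2 proximal moves among 39 sets and a median of 0.00492. Distal moves included those in Hnrnpk, Mbnl1, Ptbp3, Pum2, Rc3h1 and Rc3h2, and the proximal ones were in Celf2 and in Zfp36, which encodes the mRNA decay factor tristetraprolin. The ends of Zfp36 lie only 7 bases apart, and the mean end of Rc3h2 moved by only 5.47 bases. Cell cycle regulators had 6 of 43 nodes (14.0%) past 0.1 and 3 distal moves, in Ccnd2, Cdc25b and Mdm4, and none proximal. The ends lie only 17 bases apart in Ccnd2 and 2 bases apart in Cdc25b. In Mdm4, a p53 inhibitor, distal node 18 had a Psi of 0.410 and 0.537, a shift of 655 bases, and an end share of 0.714 ± 0.025 and 0.774 ± 0.0514 (adjusted p = 0.369). Each of these lists thus lay near or under the background share of nodes. In sets with a distal move each list lay above the background of 13.3%. This was most marked for T cell transcription factors, at 11 of 36 sets. The lists hold few sets, and these shares were not tested.

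The list of cleavage and polyadenylation factors held proteins that choose and cut the ends, and also Pabpc1, Pabpc4, Ppp1ca, Ppp1cb, Snrnp70 and Snrpa. Of its nodes 2 of 25 (8.0%) passed 0.1 in Psi, against 21.5% of all tandem 3' end nodes. All 10 of its sets were in genes of at least 10 CPM. The share over all genes was 17.6% from 30 to 100 CPM and 8.18% over 100 CPM, so 8.0% is not a trait of the list. Both nodes were in Pcf11, a subunit of cleavage factor II. Its distal node 6 had a Psi of 0.851 and 0.992 and an end share of 1.0 in every library. Expression of the listed factors was also tested. By edgeR 16 of 26 factors passed (61.5%, against 46.7% of all 16650 genes tested, 23.5% higher and 23.3% lower), 15 lower and 1 higher. Ppp1cb, Snrnp70 and Snrpa were among the lower ones. Tandem-end genes with neither move (at least 10 CPM, ends over 24 bases apart) had a similar share called, 64.1%. Cell cycle regulators had 1 higher and 19 lower of 30, and RNA-binding regulators 9 higher and 32 lower of 64. T cell receptor and costimulation genes had 20 higher and 11 lower of 56, and T cell transcription factors 19 and 18 of 54. Cstf2, which encodes the CstF subunit that binds the GU-rich element after the cleavage site, fell from 159 ± 7.43 to 109 ± 8.23 CPM (log2 fold change -0.54, SE 0.0476, adjusted p = 1.06e-07). Sympk, the scaffold symplekin, had a log2 fold change of -0.70 (adjusted p = 3.6e-06), Cpsf1 of -0.62 (adjusted p = 2.83e-06), Cpsf2 of -0.51 (adjusted p = 1.05e-07) and Papola, a poly(A) polymerase, of -0.46 (adjusted p = 1.35e-06).

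Pabpn1, the nuclear poly(A)-binding protein known to limit the use of proximal sites, rose from 63.1 ± 14.1 to 85.7 ± 16.3 CPM (log2 fold change 0.44, SE 0.135, adjusted p = 0.0119). Nudt21, the cleavage factor I subunit that promotes distal sites, had a log2 fold change of -0.01 (adjusted p = 0.931), and Pcf11 of 0.12 (adjusted p = 0.113). With RNA concentration as a covariate 9 of the 26 factors were called, all lower, and with numbers 4 to 8 alone 14, all lower. Fewer cells of a type and less RNA per cell cannot be told apart in such bulk libraries.

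Genes with tandem 3' ends were tested for expression as a class: 2559 of 4661 (54.9%) were called by edgeR, 1192 higher and 1367 lower. Over all genes tested it was 7783 of 16650 (46.7%), 3906 higher and 3877 lower. Among the 205 tested genes with a distal move (at least 10 CPM, ends over 24 bases apart) 122 (59.5%) were called, 27 higher and 95 lower, with a median log2 fold change of -0.16. Of the 69 with a proximal move 44 (63.8%) were called, 20 higher and 24 lower, with a median of -0.04, and of the 2027 with neither move 1300 (64.1%) were called, 561 higher and 739 lower, with a median of -0.02. The share called was thus similar in the 3 classes, while lower genes outnumbered higher ones most in the class with distal moves. Psi and expression come from the same libraries.

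Of the study's genes, Skp2 fell (log2 fold change -0.64, adjusted p = 1.95e-06), as did Ikzf1 (-0.23, adjusted p = 0.00483), Atf2 (-0.21, adjusted p = 0.0125) and Mbnl1 (-0.16, adjusted p = 0.0348). Tcf12 (-0.07, adjusted p = 0.283), Sos2 (0.24, adjusted p = 0.114) and Dlg1 (adjusted p = 0.971) did not pass.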

How the data were processed

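The 16 libraries (8 per group) of total RNA were prepared by SMART-Seq v4, then Nextera XT, and read from both ends over 100 bases. Per the labels, the authors aligned reads to mm10 (HISAT2 2.1.0, SAMtools 1.9). StringTie 2.1.0 gave the deposited estimated counts for genes and for transcripts, which were not normalized. The deposited counts of read pairs are the facility's. Whippet, whose version is not given in the sources used here, gave the Psi that the authors deposited as a fraction for each node and group. Which Psi column is Control was taken from the study's text. The deposited difference of Psi and the probability of a difference are the authors' own comparison and were not used. Of the columns in both count tables, 10 each matched no sample and were not used, and 26345 lines without an annotated identifier, 0.0836 to 0.132% of the counts, were left out.

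The members, gene lists and tests were chosen with earlier results of these data known. Named genes are those whose ends the study describes and Tardbp, list members past 0.1 in Psi at 10 CPM or more (here those whose position moved), the 8 largest distal and 8 largest proximal moves at 10 CPM or more, the 6 largest rises and falls among nodes called by limma, and called nodes also past 0.1 in Psi; others were chosen after their values were seen. Numbered nodes of type TE were joined into a set where their numbers ran on. Moves are Psi-weighted ranks. Of the 4794 genes, 4675 matched a symbol of GENCODE M21.

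Expression was tested by edgeR 4.0.16 in R 4.3.3 (quasi-likelihood test, TMM, filterByExpr with a minimum count of 10), and end shares with limma 3.58.1 over all 10765 nodes of sets with a mean end count of at least 50. The SE of an edgeR fold change was derived from the fold change and its F statistic. A prior count of 2 was used only for the log2 CPM that compared libraries by replicate number. A share in a library with no count in the set was left missing, which touched 116 nodes. Adjusted p is by Benjamini-Hochberg, two-sided, at 0.05. Each test was checked on simulated data. DESeq2 1.42.0, a replicate block, RNA concentration, other filters and subsets were alternatives. Estimated counts assign reads to overlapping transcripts, so shares at ends a few bases apart rest on the counting model, and no strand was used. Counting intervals are not given, because PCR copies were counted. Reads of near-identical genes may be split between them. Values of some list members are not reported here.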

Additional observations from a re-analysis of the deposited data

Results flagged for a closer look

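In 15 of 80 groups of 8 libraries the highest or lowest library lay far from the others by Dixon's test, where chance at 1 in 20 gives 4.0. Each is given as a value and no cause was tested.

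In Control the mean distal index over sets of at least 10 CPM with ends over 24 bases apart was 0.7138 in library 4 against 0.7047 to 0.7083 in the others. The end share of Tle1 node 32 was 0.8587 in library 4 against 0 to 0.3186, that of Dlg1 node 38 was 0.07084 in library 1 against 0 to 0.01061, and that of Mbnl1 node 20 was 0.1319 in library 6 against 0.02418 to 0.0742. Sos2 node 28 stood at 0 in library 5 and at 0.7673 to 1.0 in the others. Tcf12 node 28 stood at 0.0318 in library 1 and at 0 to 0.01209 in the others.

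In Tardbp libraries, Rbpms node 14 stood at 1.0 in library 5 against 0 to 0.3546, and Rbpms node 15 at 0 in the same library against 0.6454 to 1.0. Tsc22d1 node 20 was 0.1558 in library 5 against 0 to 0.06431. Synj2bp node 10 was 0.2962 in library 8 against 0.4706 to 0.5977. Dlg1 node 34 was 0.001051 in library 4 against 0 in the others, and Sos2 node 28 was 0.5023 in library 4 against 0.775 to 0.9583. Tcf12 node 28 was 0.03542 in library 7 against 0 to 0.01626. Expression of Ikzf1 was 134.1 CPM in library 3 against 154.9 to 172.3 CPM, and that of Tardbp was 110.4 CPM in the same library against 129.8 to 147.2 CPM.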

How the results depend on the processing

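Psi has 1 value per group, so replicates could not be left out and the count of 2676 nodes changed only with its definition: 4415 nodes passed a difference of 0.05, 970 passed 0.2, 1454 passed 0.1 in genes of at least 10 CPM, and 863 when ends also lay over 24 bases apart. The distal share of moves, 64.3%, was 63.4 to 67.1% with other thresholds, at 10 CPM or more, with the most distal node alone and with split sets. Chosen after seeing the data, it was 58.9% at ends within 24 bases, 75.0% over 24 bases, 76.3% over 200 bases, all at 10 CPM or more, and 77.5% for moves over 100 bases. In place of the 22 end share calls there were 36 with no minimum difference, 7 in numbers 4 to 8 alone (4 of them among the 22), 2 in numbers 1 to 3 alone (0 among the 22), 4 with RNA concentration as a covariate (4 among the 22), and 16 to 24 under 7 other settings. Genes with tandem ends called by edgeR went from 2559 to 1006 with RNA concentration and were 2291 to 2643 otherwise. Nudt21 changed sign, to a log2 fold change of 0.00995 with RNA concentration and 0.0267 in numbers 4 to 8 alone, as did Pabpc4, to 0.258 with RNA concentration, none called. The cause was not tested.

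Equal replicate numbers in the 2 groups did not pair the libraries: deviations of same-numbered libraries correlated at -0.005 to 0.16 for gene log2 CPM and -0.021 to 0.033 for end shares, and 3 of 8 and 0 of 8 pairs correlated best with their own number. With the replicate block, 0 nodes were called by limma (846 at a raw p under 0.05), the difference of the mean distal index was 0.00344 and 2551 genes were called. Low counts limit shares in genes under 10 CPM, and the depth behind each Psi is unknown here.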
